A study of Homo sapiens with 17 samples.

Results

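Contacts between different autosomes (*trans* contacts) and contacts between nearby 100 kb bins of 1 autosome (100 to 300 kb apart) were compared in Hi-C data of naive and primed human pluripotent stem cells (PSCs). These 2 kinds of contact were taken because both deposited contact lists hold them nearly completely, whereas at 1000 kb within chromosomes the naive list holds 30.4% as many bin pairs as the primed list. They amounted to 6038597 *trans* and 16667757 local contacts of 31310843 listed in naive PSCs (19.3% and 53.2%), and to 6706606 and 19812575 of 52056334 in primed PSCs (12.9% and 38.1%). Of 28760 autosomal bins of GRCh38, 25475 had enough coverage in both libraries to be used.

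Hi-C cuts fixed chromatin with a restriction enzyme, here HindIII, ligates fragments that were neighbours in the nucleus and counts the ligated pairs. Each chromosome fills its own territory, so contacts between chromosomes are rare, and they occur most between chromatin of the same kind. Gene-rich, GC-rich chromatin meets other gene-rich chromatin towards the nuclear interior (the A compartment), and gene-poor chromatin meets its own kind near the lamina (the B compartment). Chromosome ends, pericentromeric chromatin and loci held by Polycomb proteins can also meet across chromosomes.

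Both states came from the NK2 H9 line, an established human embryonic stem cell line, and both were grown at low oxygen without feeder cells. Naive PSCs, which resemble cells of the pre-implantation epiblast, were kept on Matrigel in t2iL+PKCi, that is N2B27 medium with the MEK inhibitor PD0325901, the GSK3 inhibitor CHIR99021, LIF and the protein kinase C inhibitor Gö6983. Primed PSCs, which resemble the post-implantation epiblast, were kept on Vitronectin in TeSR-E8. The series holds 17 samples, and the Hi-C comparison uses 2 of them, 1 library per state of 1 line. No Hi-C difference therefore has a replicate check and none was tested. The state, its medium and coating, the culture and the library cannot be told apart. All intervals given for Hi-C are 95% intervals that cover counting error only.

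The libraries differed in coverage of single regions. Relative to the library total, *trans* coverage of the first part of chromosome 10 (from base 100001 on, with *KLF6* and *GATA3*) was 1.66-fold higher in primed PSCs and its contacts at 100 kb were 1.56-fold higher. *Trans* coverage of chromosome 21 was 0.721 of that in naive PSCs, and the first 35000000 bases of chromosome 3 stood at 0.738, with contacts at 100 kb of 0.745 and 0.835. Whether the cultures differed in copy number there was not tested here. The *trans* comparison below divides by the coverage of each bin. The local comparison does not, so the 3 regions enter it as they are. The naive list was also less complete at 200 and 300 kb on small chromosomes. It held 85.4% and 62.9% of the bin pairs on chromosome 19, 96.7% and 82.0% on chromosome 20, 79.3% and 47.0% on chromosome 21, and 78.2% and 47.2% on chromosome 22, whereas the primed list held 100% of them. At 100 kb at least 99.3% were listed on every autosome in naive PSCs.

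Primed PSCs showed the sharper preferences between whole chromosomes. The contacts of each pair of autosomes were divided by the number expected if every bin spread its *trans* contacts evenly over the other chromosomes. Over the 231 pairs this observed over expected ratio had an SD of 0.22 on the log2 scale in naive PSCs and of 0.29 in primed PSCs. The order of the pairs was similar (Pearson r = 0.884 across pairs, which share chromosomes and are not independent), and 166 of 231 pairs lay farther from 0 in primed PSCs. A pair was counted as different at a 1.1-fold change, and 26 pairs (11.3%) were then higher and 28 (12.1%) lower in primed PSCs.

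The small gene-rich chromosomes kept together in both states, and more so in primed PSCs. Among the 6 chromosomes with most protein-coding gene starts per Mb (19, 17, 22, 16, 11 and 20), observed over expected was 1.21 in naive and 1.32 in primed PSCs, a log2 difference of 0.13 (0.12 to 0.14). Of their 15 pairs, 14 were higher in primed PSCs and 9 passed 1.1-fold. The pair of chromosomes 19 and 22 had the highest value in both states, with 2810 contacts and a log2 ratio of 1.15 in naive PSCs and 3634 contacts and 1.68 in primed PSCs. The pair of 19 and 20 went from 0.67 to 1.11 and the pair of 17 and 22 from 0.75 to 1.12. Chromosome 11, which is gene-rich but long, lay between -0.09 and 0.04 with every partner in both states.

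Contacts of these chromosomes with the 6 gene-poorest ones (2, 5, 8, 4, 18 and 13) were fewer in primed PSCs, with observed over expected of 0.963 in naive and 0.916 in primed PSCs (log2 difference -0.07, -0.08 to -0.07). Of those 36 pairs, 16 were lower by 1.1-fold and 0 were higher. The largest decreases of this kind were those of chromosomes 13 and 22 (-0.36) and 18 and 20 (-0.35), followed by chromosome 19 with 5 (-0.34), 13 (-0.34) and 4 (-0.33). Among the gene-poor chromosomes themselves the ratio was 1.01 and 1.02. The 5 acrocentric chromosomes, which carry the ribosomal RNA genes on their short arms, had 1.12 in naive and 1.11 in primed PSCs, and the interval of their log2 difference included 0 (-0.02 to 0.00).

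Single pairs stood out within or beside this pattern. Chromosomes 10 and 21 had the largest decrease, from 19175 contacts and a log2 ratio of 0.62 to 11325 contacts and 0.04. Chromosomes 18 and 20, a gene-poor with gene-dense pair named above, went from 0.60 to 0.25. In naive PSCs these were the highest ratios of chromosomes 10 and 18 with any partner. Chromosomes 19 and 21 had the largest increase (0.33 to 0.91), with 3025 and 2955 contacts. Chromosomes 1 and 15 went from -0.09 to 0.23. These chromosomes hold *UBE4B* and *ANP32A*, which had far more contacts with each other in primed PSCs and are described below. The part of those contacts in the change was not tested. The start of chromosome 10 and chromosome 21 are among the regions whose coverage differed between the libraries. The part of that difference in the pairs above was not tested.

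**Figure D1:**
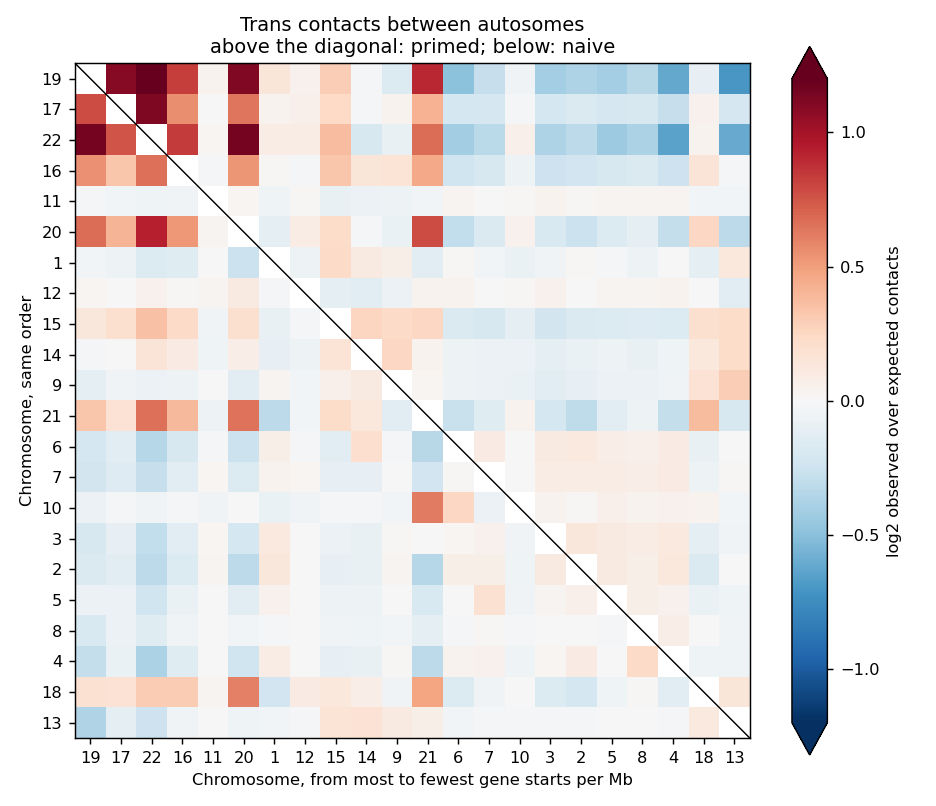
Log2 observed over expected *trans* contacts for the 231 pairs of autosomes, with primed PSCs above and naive PSCs below the diagonal, and chromosomes ordered from most to fewest gene starts per Mb on both axes. Colours reach their limit at 1.2 in either direction. The block of chromosomes 19, 17, 22, 16 and 20 is red in both states and darker in primed PSCs, where the pair of 19 and 22 reaches 1.68, and its contacts with gene-poor chromosomes at the right are bluer.

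The same was seen below the level of chromosomes. Bins were ranked by the protein-coding gene starts in the bin and 5 bins to each side, and the 5596 bins with 11 or more starts (gene-dense) were set against the 6035 with at most 1 (gene-poor). Gene-dense bins met gene-dense bins of other chromosomes at 1.35 times the expected number in naive PSCs and at 1.54 times in primed PSCs. Gene-poor bins met each other at 1.15 and 1.28 times the expected number. Contacts between the classes stood at 0.795 and 0.679, from 434708 and 404950 contacts. The log2 ratio of like to unlike contacts (dense-dense times poor-poor over dense-poor squared, called the segregation score here) was 1.30 (1.29 to 1.31) in naive and 2.09 (2.08 to 2.10) in primed PSCs. Random ligation lowers such a score. The libraries had 0.644 and 0.611 *trans* contacts per contact at 100 kb, and the part of random ligation in the difference was not tested.

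The difference was shared by most of the genome. Taking the contacts of 1 chromosome at a time with all others, the score was higher in primed PSCs for 20 of 22 chromosomes, by 0.42 (chromosome 18) to 1.08 (chromosome 17). Chromosome 17 had the highest score in both states (1.61 and 2.69). Chromosomes 19 and 22, with 28 and 33 gene-poor bins, differed by -0.05 (± 0.11) and -0.09 (± 0.10), with the half-width of the interval in brackets. With bins in 5 classes of gene density, the 3 middle classes had log2 differences between -0.01 and 0.04 among themselves. The largest decrease was between the gene-poor and gene-dense classes (-0.23), and the largest increases were within the gene-dense (0.19) and within the gene-poor class (0.14). GC content gave larger values, with a score of 1.81 in naive and 3.46 in primed PSCs between the highest and lowest of 5 GC classes. Among bins of the middle GC class, gene-dense against gene-poor bins still scored 0.61 in naive and 0.82 in primed PSCs.

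**Figure D2:**
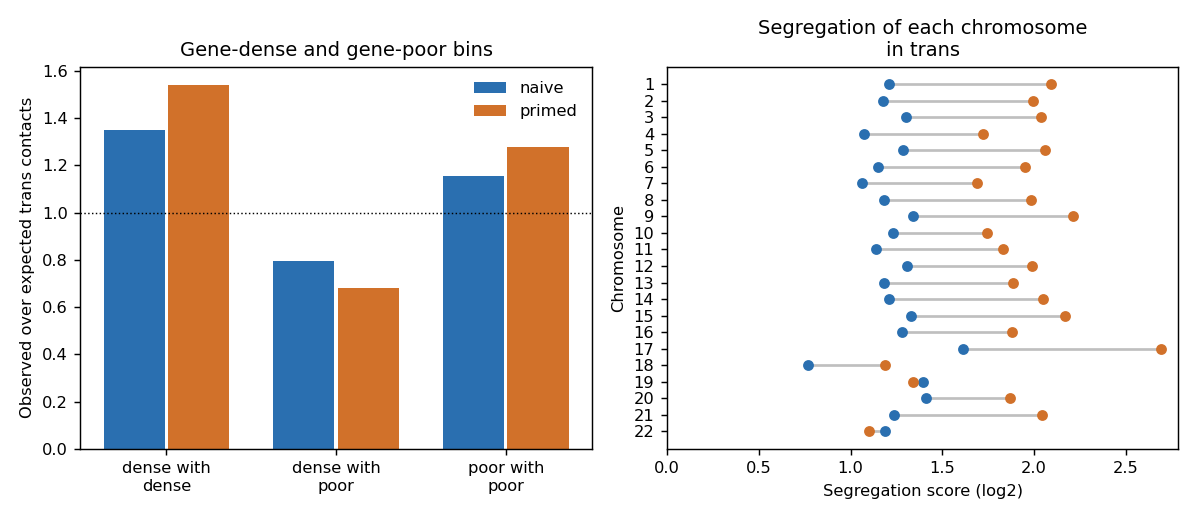
Left, observed over expected *trans* contacts among gene-dense and gene-poor bins in naive (blue) and primed (orange) PSCs, with the value expected without preference dotted. Right, the segregation score of each autosome with all others, where the primed point lies to the right for 20 of 22 chromosomes and to the left for 19 and 22.

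Preferences were stronger in primed PSCs, and in most windows they kept their sign. For 2594 windows of 1 Mb, the log2 ratio of contacts with gene-dense to contacts with gene-poor bins of other chromosomes had an SD of 0.65 in naive and 1.11 in primed PSCs. The windows kept their order (r = 0.949 across windows, which share the library and neighbouring sequence), and the slope of primed on naive values was 1.62. The sign was the same in 2367 windows (91.2%). With a threshold of 0.5 on either side, 0 windows (0%) went from a gene-poor to a gene-dense preference and 0 (0%) in the opposite direction, against 129 windows that crossed 0 upwards and 98 that crossed it downwards.

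The windows farthest from the common slope were named after their values were seen and are given as a description. Below it were windows around *KLF4*, a transcription factor of the naive state (0.31 in naive and -0.46 in primed PSCs), *MYC* (0.46 and -0.28), *SOX4* (0.37 and -0.40), the oestrogen receptor gene *ESR1* with *AKAP12* (0.34 and -0.49), and the zinc finger gene array of chromosome 19 from 37000001 to 38000000 (1.25 and 0.65). Above it were windows of *SALL1*, a developmental zinc finger regulator (-0.36 in naive and 0.58 in primed PSCs), *FOXA2*, an endoderm regulator (-0.50 and 0.32), *TOX3* (-0.56 and 0.16), an olfactory receptor array on chromosome 11 (-0.55 and 0.25) and the cadherin gene *CDH4* (0.26 and 1.5). The median counting SE of a change was 0.09.

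Bins with developmental regulators gave the largest difference between the states among the gene families. Homeobox, *PAX*, *TBX*, *SOX* and *FOX* genes that pattern the embryo are in large part silent in pluripotent cells, many of them under Polycomb proteins, though some, such as *OTX2*, are active in the primed state. Their 109 bins on 20 chromosomes had 94 contacts with each other across chromosomes in naive PSCs, against 90.6 expected, and 420 in primed PSCs, against 90.1 expected. Observed over expected was thus 1.04 in naive and 4.66 in primed PSCs, a log2 difference of 2.17 (1.85 to 2.49). It was 1.01 and 4.85 for the 85 bins away from centromeres and chromosome ends, and 1.08 and 3.81 without the *HOX* clusters.

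These contacts were spread over many loci. In naive PSCs each of 94 pairs of bins had a single contact. In primed PSCs 374 pairs had at least 1, 39 had 2 or more, 4 had 3 or more and the most was 5. Of the 109 bins, 85 had such a contact in naive and 103 in primed PSCs. The bins with most contacts in primed PSCs were those of *HOXB3* to *HOXB9* (25 against 1.44 expected, and 0 in naive PSCs), *HOXA2* to *HOXA11* (25, and 1 in naive PSCs) and *HOXB1* to *HOXB5* (24 and 0). The *HOX* genes set the head-to-tail axis. Next came *PAX6*, the eye and forebrain regulator (22 and 4), *FOXD1* (21 and 2), and *HOXC9* to *HOXC13* with *HOXC6* (20 and 2). They were followed by *FOXF1* with *FOXC2* and *FOXL1* (20 and 1), *MSX1* (20 and 2), *HOXB13* (19 and 4), *DLX1* of forebrain interneurons (19 and 1) and *LHX2* (18 and 3).

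Among the *HOX* clusters alone there were 2 contacts in naive PSCs (0.491 expected) and 25 in primed PSCs (0.329 expected). The *HOXB* and *HOXC* clusters shared 14 of the 25 (2 in naive PSCs), *HOXA* and *HOXB* 6, *HOXA* and *HOXC* 3, and *HOXB* and *HOXD* 2. Counts this small limit what single pairs of clusters show, as a count of 0 allows up to 3.69. Other pairs of loci with contacts in primed PSCs and 0 in naive PSCs included *PAX6* with *HOXB1* to *HOXB5* (3), and *PAX7* with *OTX1*, *MSX2* and *TBX1*, *OTX2* with *TBX4*, and *NKX2-1* with *TBX5* (2 each).

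Contacts of the developmental bins with other families did not show such an increase. With ribosomal protein gene bins observed over expected was 1.30 in naive and 1.32 in primed PSCs, with zinc finger gene bins 1.32 and 1.06, and with olfactory receptor gene bins 1.03 and 0.837. Bins of ribosomal protein genes, which are active in every cell, had 1.68 and 2.13 among themselves, and the interval of that difference included 0 (-0.24 to 0.94). Bins of snRNA genes had 1.48 and 1.26 (-0.85 to 0.38). Histone gene bins had 2 and 3 contacts and keratin gene bins 1 and 4, too few to compare, and the protocadherin clusters lie on 1 chromosome. Over the H3K4me1 libraries, which are separate from Hi-C, the developmental bins stood above all usable bins by a mean log2 of 0.81 and 0.99 in the naive libraries and of 1.16, 1.07 and 0.91 in the primed libraries, so the states overlapped.

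**Figure D3:**
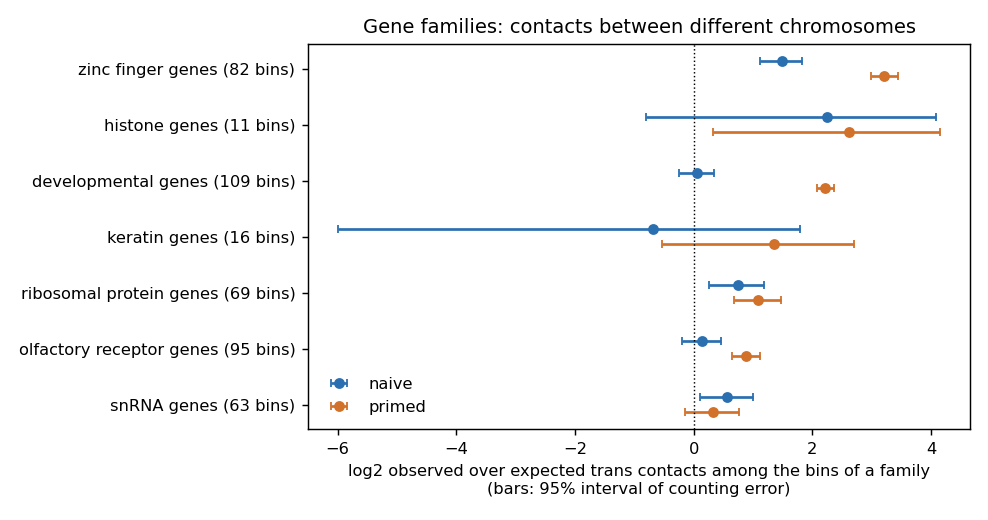
Log2 observed over expected *trans* contacts among the bins of each gene family in naive (blue) and primed (orange) PSCs, with 95% intervals of counting error. Developmental genes sit at 0.05 in naive and 2.22 in primed PSCs with intervals far apart, while those of ribosomal protein, snRNA, histone and keratin genes overlap.

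Zinc finger and olfactory receptor genes, which lie in large tandem arrays, also had more contacts among themselves in primed PSCs. For 82 bins with at least 2 *ZNF* genes, which encode DNA-binding repressors of transposons, there were 66 contacts in naive and 161 in primed PSCs, with observed over expected of 2.80 and 9.30. Most of these contacts lay near chromosome ends or centromeres. The leading bins were *ZNF250* and *ZNF16* at the end of chromosome 8 (9 and 34 contacts), *ZNF605* and *ZNF26* at the end of chromosome 12 (4 and 32) and *ZNF891*, *ZNF10* and *ZNF268* beside them (8 and 26). Without bins within 5 Mb of a chromosome end or centromere, 12 contacts in naive and 6 in primed PSCs were left, and the log2 difference was -0.56 (-1.98 to 0.85). Without chromosome 19, which holds most of the family, it was 2.38, from 13 and 65 contacts. For 95 bins of olfactory receptor genes the ratio was 1.1 and 1.85 (77 and 151 contacts), and away from ends and centromeres it was 1.24 and 0.914 (23 and 24 contacts). Between the families the ratio was 1.01 in naive and 3.13 in primed PSCs (116 and 312 contacts), with bins near chromosome ends and centromeres included.

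H3K4me1 over the zinc finger bins differed between the states. Relative to all usable bins, the mean log2 level was 0.49 and 0.92 in the 2 naive libraries and -0.93, -0.14 and -0.32 in the 3 primed libraries, which do not overlap. The same separation was seen over ribosomal protein, snRNA, histone and protocadherin gene bins, given at the end. *Trans* coverage of the zinc finger bins was also lower in primed PSCs (median log2 -0.33), and the part of coverage in the ratios was not tested. For olfactory receptor bins the levels were -0.70 and -0.80 in naive and -1.44, -0.84 and -0.77 in primed libraries, and the groups overlapped.

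Chromosome ends met chromosome ends, and centromere sides met centromere sides, more in primed PSCs. Bins within 5 Mb of the centromeric gap had 21994 contacts with each other in naive and 49078 in primed PSCs, with observed over expected of 1.12 and 1.93. Bins within 5 Mb of an end had 1.48 and 1.91 (35373 and 53043 contacts). Between an end and a centromere side the ratio was 1.04 and 1.02. Within 2 Mb the log2 differences were larger, at 1.27 for centromere sides and 0.80 for ends, against 0.79 and 0.36 within 5 Mb.

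Some pairs of loci on different chromosomes had focal clusters of contacts. A cluster was counted where windows of 1 Mb on 2 chromosomes had at least 15 contacts and 5 times the expected number, with neighbouring windows merged, a rule set after the contacts had been seen. It was met in both states by 11 clusters, in naive PSCs alone by 20 and in primed PSCs alone by 370. Of those reached in primed PSCs alone, 98 joined chromosome ends, 55 joined centromere sides, 11 joined windows with developmental genes, 7 zinc finger genes and 2 olfactory receptor genes, and 208 none of these. Of the 20 in naive PSCs alone, 2 joined ends and 18 none of these, and of the 11 in both states 4, with 1 for centromere sides and 6 for none. Ends hold 1782 and centromere sides 1593 of 25475 usable bins. The share of all window pairs in each class was not counted, so an enrichment cannot be read from these numbers. In pairs of 100 kb bins, 98.7% and 98.3% of those listed between chromosomes had 1 contact, and pairs with 2 or more were 1.07 and 1.22 times as frequent as the fitted expectation gives.

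Of the clusters reached in naive PSCs alone, 5 had more than 100 contacts. A locus without protein-coding genes on chromosome 6 (peak bin 112700001 to 112800000) and *CTNNA3*, an alpha-catenin gene, on chromosome 10 (66800001 to 66900000) had 467 contacts in naive and 15 in primed PSCs. A locus on chromosome 5 (16300001 to 16400000) and *PTPRN2* on chromosome 7 (157500001 to 157600000) had 418 and 12. *IGF2R*, the IGF2 receptor gene of chromosome 6, with *MAS1*, and *SLC38A6* on chromosome 14 had 335 and 23. *COQ2* and *HPSE* on chromosome 4 with *PREX2* on chromosome 8 had 237 and 24, and *PPAT* with *AASDH* on chromosome 4 with *SULF1* on chromosome 8 had 175 and 19. In primed PSCs these 5 stood between 0.421 and 1.33 times the expected number.

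The contacts around these loci were uneven between the 4 combinations of their sides (quadrants). In naive PSCs, the 10 Mb to the left of the chromosome 6 locus met the 10 Mb to the right of *CTNNA3* at 5.44 times the expected number, against 1.43 to 1.75 for the other quadrants. For the chromosome 5 locus and *PTPRN2* the right sides of both had 9.85 and the left sides 4.12, against 2.21 and 1.19. For *IGF2R* and *SLC38A6* left and right had 3.75, against 1.02 to 1.34. For *COQ2* and *PREX2* right and left had 3.34 and left and right 2.42, against 1.13 and 1.34. For *PPAT* and *SULF1* the right sides had 3.73, against 1.49 to 2.17. In primed PSCs *UBE4B* on chromosome 1 and *ANP32A* on chromosome 15 had 252 contacts, against 11 in naive PSCs, and the right sides of both had 3.81, the highest of their 4 quadrants. Whether the cultures differed in rearrangements was not tested.

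Another group of loci met each other in primed PSCs. After the contacts had been seen, 9 windows of 1 Mb were chosen that each had at least 5 partner windows and at least 15 times the expected contacts with them in primed PSCs, and under 2 times in naive PSCs. They hold *UNC13C* of synapses (chromosome 15), *DMRT2* and *SMARCA2* (9), the epidermal filaggrin and late cornified envelope genes (1), the neuronal channel subunit *DPP6* (7), *AGBL4* (1), *FRG1* (4), *ZFAT* (8), a zinc finger array with the imprinted *PEG3* and the oocyte gene *NLRP5* (19) and an olfactory receptor array (11). Taken over all pairs among the 9, there were 54 contacts in naive PSCs (56.2 expected) and 754 in primed PSCs (32.2 expected), ratios of 0.960 and 23.4 that the choice itself favours. They were 0.28% of the windows' *trans* contacts in naive and 4.94% in primed PSCs.

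Single pairs of this group, whose counts are part of what chose the windows, are given as a description. *AGBL4* and the *DPP6* window had 5 and 101 contacts, the filaggrin genes and the window of *NLRP5* 6 and 82, *AGBL4* and *DMRT2* 11 and 77, *AGBL4* and *UNC13C* 3 and 55, and the *DMRT2* window and *UNC13C* 4 and 51. The *UNC13C* window had 17 partner windows, the most of the group. Bins of the developmental list were in 0 of the 9 windows. Of 25475 usable bins the windows hold 83 and the list 109, too few for that 0 to show a separation. *Trans* coverage of the 9 windows was lower in primed PSCs (median log2 -0.52, and -1.30 to 0.02 by window), while their contacts at 100 kb differed by a median log2 of 0.10. H3K4me1 was below that of all usable bins in every library, by log2 -0.92 and -1.18 in naive and -2.43, -1.11 and -1.04 in primed libraries, with primed library 1 apart from the others. The share of tiles at a library's lowest value was 50.4% in primed library 1 and ranged from 13.4% to 51.0% over the libraries. Its part in these levels was not tested. The part of coverage in the ratios was not tested.

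**Figure D4:**
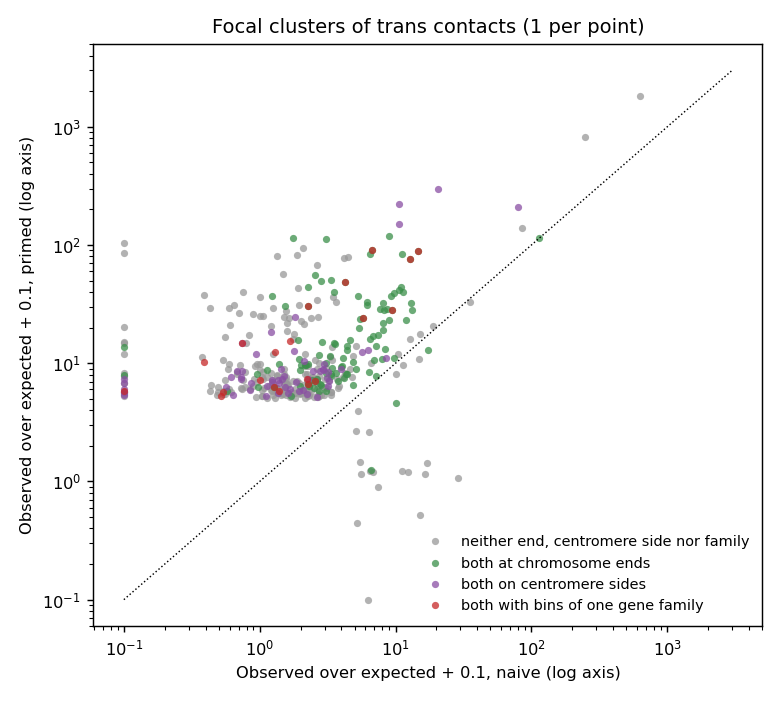
Observed over expected contacts of the focal clusters in naive (horizontal axis) and primed PSCs (vertical axis), both on log axes with 0.1 added, coloured by what the 2 loci share. The 370 clusters reached in primed PSCs alone fill the upper left, the 20 of naive PSCs alone lie below the diagonal of equal values, and clusters between chromosome ends or between centromere sides lie mostly above it.

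Local contact, the contacts of a bin with bins 100 to 300 kb away as a share of all such contacts, differed between the states in a minority of bins. Of 25112 bins with at least 200 local contacts in both libraries, 1077 (4.29%) were higher and 2446 (9.74%) lower in primed PSCs by at least 1.2-fold. The median bin had 1314 contacts in naive and 1565 in primed PSCs, which gives a counting SD of 0.05 on the log2 scale. Gene-dense bins had a median log2 difference of -0.09 and gene-poor bins of 0.03, and the gene-dense median was the lower one on 22 of 22 chromosomes. The gap was near 0 on chromosomes 13 (-0.001), 18 (-0.013) and 4 (-0.014). It was widest on chromosomes 19 (-0.68), 21 (-0.36) and 22 (-0.35), where the naive list is incomplete. Without chromosomes 19 to 22, a setting added after seeing the data, the gap over all bins was -0.10, against -0.11 with them. Of gene-dense bins 23.6% were lower and 4.80% higher, and of gene-poor bins 2.92% and 3.80%. The difference went with base composition, since bins of the highest of 5 GC classes had a median of -0.19 with 35.8% lower, and those of the lowest class 0.05 with 1.2% lower (r = -0.49 between GC content and the change over bins, which share the library). Within the middle GC class, gene-dense bins were above gene-poor bins by 0.05.

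A division by the *trans* coverage of both bins gave other bins. It raised the counts to 5969 higher and 5559 lower bins, kept 865 of the 2446 lower and 453 of the 1077 higher bins and turned the direction of 464 and 221 beyond 1.2-fold. Which of the 2 scales shows local folding more closely cannot be told from 1 library per state, and calls for single bins are given with both where they differ in sign.

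**Figure D5:**
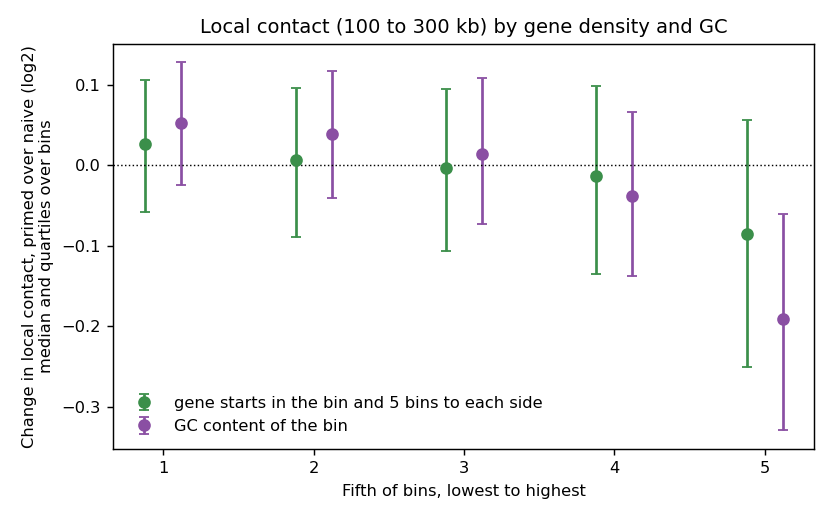
Median and quartiles over bins of the log2 change in local contact (primed over naive) for 5 classes of bins by gene starts (green) and by GC content (purple). Medians go from 0.03 to -0.09 along gene density and from 0.05 to -0.19 along GC content.

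Gene families were read against the shares over all tested bins, 9.74% lower and 4.29% higher, and against the 35.8% lower of the highest GC class. Of 104 tested bins with developmental genes, 33 (31.7%) were lower and 2 (1.92%) higher in primed PSCs, with a median of -0.13 and a median GC content of 45.4%, against 39.7% for all tested bins. Of 65 ribosomal protein gene bins 19 (29.2%) were lower, of 61 snRNA gene bins 15 (24.6%), and of 9 histone gene bins 4, with a histone median of -0.26. Of 93 olfactory receptor bins 3 were lower and 6 higher, with a median of 0.06. Zinc finger bins had 11 in each direction of 70 tested. Of the 82 usable zinc finger bins, 31 lie outside chromosome 19. On chromosome 19 the naive list held 85.4% of pairs at 200 kb and 62.9% at 300 kb. The zinc finger array at its end was at -0.11, and at -0.23 over pairs listed in both states. The part of incomplete listing in the zinc finger values was not tested. The 8 protocadherin bins had a median of 0.09, with 1 lower. These values depended on the scale. Over *trans* coverage the medians were -0.02 for developmental, -0.01 for ribosomal protein, -0.14 for snRNA and -0.33 for histone gene bins. They were 0.80 for zinc finger, -0.14 for olfactory receptor and -0.12 for protocadherin bins.

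Adjacent bins past 1.2-fold made 1221 regions higher in naive and 632 higher in primed PSCs. The 10 largest in naive PSCs were led by *ZIM3*, *USP29* and *ZNF264* on chromosome 19 (57100001 to 57200000, 1.75-fold), the ammonium transporter gene *RHCG* (1.69-fold), keratin-associated protein genes with *ITGB2* and *ADARB1* at the end of chromosome 21 (44400001 to 45400000, 1.65-fold) and *UTF1* and *VENTX* on chromosome 10 (133100001 to 133300000, 1.63-fold). *UTF1* is expressed in pluripotent cells and *VENTX* is a homeobox gene. Also among them were *HSF2BP* with *PDXK* (1.63-fold), *PDE2A* (1.62-fold), *WASF2* (1.62-fold), *NPTX1* (1.59-fold), *PHLPP1* (1.58-fold) and the ephrin receptor gene *EPHA2* (1.58-fold). Over *trans* coverage, the *ZIM3*, *NPTX1* and both chromosome 21 regions had the opposite sign (0.25 to 0.57). At 100 kb alone the *PDE2A* region was at -0.24 on the log2 scale, within 1.2-fold.

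In primed PSCs, 9 of the 10 largest regions lay on chromosomes 19, 21 and 22, where the naive list is incomplete. *NF2* on chromosome 22 was at 0.96 on the log2 scale over 100 to 300 kb but at -0.12 at 100 kb, *TTC28* at 0.95 and 0.24, *ADAMTS1* at 0.94 and -0.40, and *ISX* at 0.89 and -0.17. Regions that also passed 1.2-fold at 100 kb and over the pairs listed in both states were therefore counted apart, a step added after the values were seen. This kept 789 of 1221 regions higher in naive and 249 of 632 higher in primed PSCs. The 10 largest kept in primed PSCs included *PRSS12* on chromosome 4 (251 and 494 contacts, 0.73), *GPI* with *GARRE1* on chromosome 19 (0.67, and 0.31 over pairs listed in both), a locus without protein-coding gene starts on chromosome 16 (8000001 to 8200000, 0.64), *BICD1* with *FGD4* on chromosome 12 (0.62), and the DNA demethylase gene *TET1* with *DNA2*, *CCAR1* and *DDX21* on chromosome 10 (68400001 to 69000000, 0.59). Another 2 of them, at 0.62 and 0.61, made up most of the start of chromosome 10, with *GATA3*, *KLF6* and *IL2RA*, where *trans* coverage was higher as well (0.86 and 0.73), so that over *trans* coverage they were at -1.06 and -0.85.

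Genes that mark the states did not share a direction with their state. Counts of called loci stand against 9.74% of all tested bins lower and 4.29% higher. Of 13 loci of naive state genes, *KLF4* (-0.51, -0.69 to -0.34), *TFAP2C* (-0.40), *FGF4* (-0.38), *ALPG* (-0.37), *SUSD2* (-0.35) and *TFCP2L1* (-0.28) were lower in primed PSCs by 1.2-fold, and *DPPA5* (0.28, 0.11 to 0.44) and *NLRP7* (0.64, from 33 and 61 contacts, and 0.38 over pairs listed in both states) were higher. *NLRP7* is under the minimum of 200 contacts that single bins had to reach. *KLF17*, *ARGFX* and the bin shared by *DPPA3* and *NANOG* were within 1.2-fold, with intervals that included 0, and *ZFP57* (-0.24) and *TBX3* (-0.19) were within 1.2-fold with intervals below 0. Of 14 loci of primed state genes, *DUSP6*, an ERK phosphatase, was higher (0.38, 0.30 to 0.46; 1898 and 2937 contacts), and the DNA methyltransferase gene *DNMT3B* (-0.50), *THY1* (-0.47) and *ZIC2* (-0.39) were lower. *CD24* (-0.23), *PTPRZ1* (-0.16) and *CDH2* (-0.11) were within 1.2-fold with intervals below 0, and *SALL3* (0.13) with an interval above 0. *OTX2*, *SFRP2*, *SOX11*, *NODAL*, *LEFTY2* and *FZD7* had intervals that included 0. The medians were -0.24 for naive and -0.11 for primed state genes.

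Of the core pluripotency genes *SOX2* was lower (-0.28, -0.40 to -0.17), while *POU5F1*, *NANOG*, *LIN28A* and *SALL4* had intervals that included 0. The housekeeping gene *GAPDH* was at -0.57, whereas *TBP* (0.23, 0.09 to 0.38) and *EEF1A1* (0.23, 0.07 to 0.38) were within 1.2-fold with intervals above 0, and *RPLP0* was at 0.07 with an interval that included 0. *DNMT3L* and *ACTB* had no usable bin. The *HOXC* (-0.33) and *HOXD* clusters (-0.27) were lower and *HOXA* (-0.04) and *HOXB* (-0.09) were within 1.2-fold. Over the *trans* coverage of both bins, *DPPA5* (-0.14), *FGF4* (0.07), *ZIC2* (0.20), *HOXC* (0.03) and *HOXD* (0.55) changed sign among the called loci. *KLF4* (-0.25), *SUSD2* (-0.12), *DNMT3B* (-0.16), *THY1* (-0.13), *SOX2* (-0.12) and *GAPDH* (-0.21) were then within 1.2-fold. At 100 kb alone *DPPA5* (0.16), *ALPG* (-0.16), *THY1* (-0.16), *ZIC2* (-0.08), *HOXC* (-0.02) and *HOXD* (-0.17) were within 1.2-fold. The calls of *TFAP2C*, *TFCP2L1* and *DUSP6* held both over *trans* coverage and at 100 kb alone. Those of *ALPG* (-0.60) and *NLRP7* (1.17) held over *trans* coverage, and *NLRP7* had no value at 100 kb alone. Of loci within 1.2-fold, *HOXA* (0.29), *HOXB* (0.43), *LEFTY2* (0.52), *TBP* (-0.44) and the zinc finger array at the end of chromosome 19 (1.56) were past 1.2-fold in the opposite direction over *trans* coverage. *PAX6*, *NKX2-2*, *GATA6*, *LHX9* and *OTP* lay between -0.06 and 0.02, with intervals that included 0, and *NKX2-1* was at -0.15 (-0.24 to -0.05), within 1.2-fold. Over *trans* coverage, however, *GATA6* (-0.78), *PAX6* (-0.27), *OTP* (-0.27) and *NKX2-2* (0.29) were past 1.2-fold, and *LHX9* (0.18) was within it. So were past it *CDH2* (-0.33), *SALL4* (-0.31) and *SFRP2* (-0.29). *TBX3* (0.17), *NKX2-1* (0.21), *SALL3* (-0.16) and *EEF1A1* (-0.10) changed sign but stayed within 1.2-fold.

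Within 300 kb, contacts reached slightly farther in primed PSCs. The share at 300 kb was 17.5% in naive and 18.2% in primed PSCs, and 17.9% in primed PSCs over pairs listed in both states. It was 13.5% and 14.4% in gene-dense bins and 16.8% and 17.4% in gene-poor bins.

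Promoter Capture Hi-C, in which promoter fragments are enriched from Hi-C library DNA, differed in the same direction as local contact. The deposited lists combine 2 replicates per state. Because the capture starts from Hi-C library DNA, they are not an independent assay of local contact. Whether that DNA came from the same libraries as used here was not tested. In bins with higher local contact in primed PSCs, interactions of 100 to 300 kb had 2717 ends in the naive and 4193 in the primed list, 1.54 times as many (1.47 to 1.62). In bins with lower local contact there were 12304 and 8606, 0.699 times as many (0.680 to 0.719), and in all other bins 0.913 times as many. The bins with lower contact had the most interaction ends in naive PSCs, at 5.03 per bin against 2.52 in the bins with higher contact and 2.65 in all others.

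H3K4me1, a mark of enhancers, was compared between the states over the same bins. Each library's mean log2 level in bins with higher local contact in primed PSCs minus that in bins with lower contact was -0.50 and -0.67 in the 2 naive libraries and -0.72, -0.94 and -0.60 in the 3 primed libraries. The groups overlapped, and the difference of their means was -0.17 (exact permutation test, two-sided, p = 0.4, where 2 against 3 libraries allow no p under 0.1). With local contact taken over *trans* coverage, the means were -0.22 in naive and -0.38 in primed libraries, with a p of 0.1 by the same exact test, the smallest it allows. In every library the bins with lower contact stood above all tested bins, by 0.37 to 0.83. The bins with higher contact in primed PSCs stood above all tested bins in the naive libraries (0.12 and 0.17) and below them in the primed libraries (-0.35, -0.21 and -0.15), so the states did not overlap there.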

How the data were processed

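For Hi-C, the authors mapped read pairs to GRCh38, filtered them with HiCUP and deposited the count of contacts for each pair of 100 kb bins, unnormalised and without pairs inside a bin. For H3K4me1 CUT&RUN the authors deposited log2 RPM per 500 bp tile. For Promoter Capture Hi-C the authors deposited interactions with a combined read number and a CHiCAGO score, and here interactions were only counted.

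Bins with 0.3 to 3 times the median *trans* coverage in both libraries were used. Expected *trans* contacts came from iterative proportional fitting of 1 factor per bin. Counts have exact Poisson intervals, and differences of log2 ratios have intervals from the summed inverse counts. Genes came from GENCODE 44. H3K4me1 tiles at a library's lowest value were set to 0, summed per bin and put on the log2 scale, and compared by exact permutation over libraries. Such tiles made up 19.6% and 51.0% of all tiles in the naive libraries and 50.4%, 40.1% and 13.4% in the primed libraries. The part of this in differences between libraries was not tested. The scripts were tested on simulated contacts. The gene families, named genes (state, housekeeping and developmental loci, and the 10 most changed chromosome pairs and regions in each direction) and tests were chosen with earlier results of these data known. Foci, the group of 9 windows, preference windows and regions kept at 100 kb were chosen after values were seen. A difference of local contact was called at 1.2-fold. NANOG, SOX2 and input ChIP-seq samples were not used here. Python 3.11.15, numpy 2.4.6, scipy 1.17.1 and pandas 2.3.3 were used.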

Additional observations from a re-analysis of the deposited data

How the results depend on the processing

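With 1 Hi-C library per state, counting error sets the intervals and culture or library differences cannot be judged. No paired analysis was possible because the Hi-C groups share a single library number. Local contact on chromosomes 19 to 22 rests on an incomplete naive list.

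At 1.2-fold, 7 chromosome pairs were higher and 10 lower in primed PSCs. Without centromere sides and chromosome ends, log2 changes were 0.0973 among gene-dense chromosomes, -0.0652 between gene-dense and gene-poor ones and 0.00729 among acrocentric ones. Without chromosome 19 the former pair were 0.111 and -0.0631. Without chromosome pairs holding a cluster of at least 100 contacts (chosen after seeing the data) the gene-poor chromosomes changed by 0.0253. The change in segregation score was 0.77 with the expectation rescaled within chromosome pairs, 0.28 with gene starts of the bin alone, 0.71 with bins of 0.5 to 2 times the median coverage, 1.34 between the highest and lowest 10% of bins and 1.65 by GC content. Added after seeing the data, it was 0.84 without chromosomes 10, 15, 18, 19, 20 and 21 and 0.21 within the middle GC class. Within 2 Mb the changes were 1.27 for centromere sides, 0.80 for ends and 0.0222 between them, which reverses the sign of the last, and with the stricter coverage range 0.81 and 0.33 for centromere sides and ends. Away from ends and centromeres, zinc finger (-0.56) and olfactory receptor bins (-0.44) reversed.

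Bins past 1.5-fold numbered 121 higher and 184 lower, and over *trans* coverage 5969 and 5559. Gene-dense minus gene-poor local change was -0.28 over *trans* coverage, -0.24 by GC content and 0.0476 within the middle GC class, a reversal. Over *trans* coverage *DPPA5* (-0.14), *FGF4* (0.0721), *ZIC2* (0.20), *HOXC* (0.0267) and *HOXD* (0.55) reversed. The share at 300 kb differed by 0.41 percentage points over pairs listed in both states, 0.58 with the stricter coverage range and 0.50 without chromosomes 19 to 22, against 0.68. The log2 ratio of promoter interaction changes, higher over lower bins, was 1.14, and 1.85 at 1.5-fold. For H3K4me1 the difference was 0.39 at 1.5-fold, a reversal with p = 0.2 by the exact permutation test, -0.26 to -0.08 with 1 library left out, and -0.25 with the replicate block, where the pairing of libraries 1 and 2 rests on their numbers alone (correlations of deviations -0.06 and 0.11). The cause of these reversals was not tested.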

Other observations

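H3K4me1 levels over further gene families are given here per library. Relative to all usable bins, the mean log2 level over ribosomal protein gene bins was 1.21 and 1.54 in the naive libraries and 0.55, 0.69 and 0.46 in the primed libraries, and over snRNA gene bins 0.79 and 1.01 against 0.40, 0.39 and 0.31. Over histone gene bins it was 1.33 and 1.61 in naive and 0.90, 0.74 and 0.66 in primed libraries. Over the protocadherin clusters it was 0.48 and 0.59 in naive and -0.39, -0.07 and -0.12 in primed libraries. In each of these families every naive library lay above every primed library. Keratin gene bins overlapped, with -0.19 and -0.04 in naive and -0.38, 0.35 and 0.01 in primed libraries. The lists were compared after the contacts were known, and no test was run.

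Contacts with mitochondrial DNA, which lies outside the nucleus, numbered 195 in naive and 229 in primed PSCs.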
